A study of Mus musculus with 13 samples.

Results

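The genes described here are the 7 core genes of major histocompatibility complex (MHC) class II antigen presentation. They are the class II chain genes H2-Aa, H2-Ab1 and H2-Eb1, the invariant chain gene Cd74, the peptide-loading genes H2-DMa and H2-DMb1, and the master regulator Ciita. They were chosen by their function, by matching gene symbols, and all 7 were found among the 25746 genes of the count table and passed the filter on low counts that left 16051 genes for testing. The libraries came from interfollicular keratinocytes, the epidermal cells between the hair follicles, which were sorted by flow cytometry from the skin of C57/BL6 mice. All mice carried floxed alleles of Il12rb2, a receptor subunit for interleukin-12. Mice without Cre (Il12rb2fl/fl, called floxed control below) gave 3 untreated libraries and 3 libraries after 1 day of Aldara, a cream with 5% imiquimod that was applied to the skin. Mice with K14Cre in addition (K14Cre/+ Il12rb2fl/fl, called Il12rb2-deleted below) gave 4 untreated libraries and 3 libraries after 1 day of Aldara. K14Cre acts from the keratin 14 promoter in basal keratinocytes and their progeny, so immune cells of the same skin keep the receptor gene. The ages of the mice were not analysed here, nor were a vehicle cream or mice with K14Cre and unfloxed Il12rb2.

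MHC class II molecules carry peptides from the lysosomal pathway to the cell surface, where CD4+ T cells read them. An alpha and a beta chain pair in the endoplasmic reticulum around the invariant chain, which CD74 forms, and the DM heterodimer later exchanges the invariant chain remnant for peptide. Professional antigen-presenting cells express these genes all the time, among them the Langerhans cells that lie between keratinocytes, while keratinocytes express them mainly after interferon-gamma, through IRF1 and CIITA. In C57BL/6 mice the I-E alpha chain is not made, so H2-Eb1 transcripts do not lead to a surface I-E molecule and I-A, encoded by H2-Aa and H2-Ab1, is the class II molecule of these mice.

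The class II chain and DM genes lie in the class II region of chromosome 17 (GRCm38, GENCODE M21). H2-DMa (ENSMUSG00000037649) occupies 34119541 to 34139101 and H2-DMb1 (ENSMUSG00000079547) 34153072 to 34160230, both on the plus strand. H2-Ab1 (ENSMUSG00000073421) lies at 34257689 to 34269419 on the plus strand. H2-Aa (ENSMUSG00000036594) lies at 34282744 to 34287823 on the minus strand, and H2-Eb1 (ENSMUSG00000060586) at 34305867 to 34316674 on the plus strand. Ciita (ENSMUSG00000022504) lies on chromosome 16 at 10480059 to 10528418 on the plus strand.

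Class II genes are known for a shared promoter module, the X and Y boxes. RFX proteins and CREB bind around the X box, NF-Y binds the CCAAT sequence of the Y box, and CIITA joins the assembled complex without binding DNA itself. The module is shown as a known feature of class II genes, and it was not seen in all members. No window was at hand for H2-Ab1, Cd74 or Ciita. The RefSeq promoter windows used here (GRCm38.p6, 250 bases before to 50 bases after each start) had entries for H2-Aa, H2-Eb1, H2-DMb1 and H2-DMa among the members. The 150 bases before the start are printed 5′ to 3′ on the gene's strand, with part of the X box (GNAAC) and the Y box (TGATTGG) in capitals. Starts here are those of RefSeq. For H2-DMb1 the RefSeq start lies downstream of the GENCODE start given above (34153072), so the printed bases reach into the GENCODE gene.
H2-Aa, chr17:34287824-34287973, minus strand: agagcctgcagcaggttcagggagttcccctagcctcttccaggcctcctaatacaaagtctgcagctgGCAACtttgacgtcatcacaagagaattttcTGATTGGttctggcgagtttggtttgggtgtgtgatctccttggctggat
H2-Eb1, chr17:34305717-34305866, plus strand: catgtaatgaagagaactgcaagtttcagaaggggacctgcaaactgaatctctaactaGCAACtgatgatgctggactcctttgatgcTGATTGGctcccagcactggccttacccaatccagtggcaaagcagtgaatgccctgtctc
H2-DMb1, chr17:34153041-34153190, plus strand: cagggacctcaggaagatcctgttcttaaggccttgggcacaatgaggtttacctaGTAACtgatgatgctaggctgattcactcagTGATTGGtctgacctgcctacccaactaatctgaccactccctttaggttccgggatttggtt

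The space between both boxes was 26 bases in H2-Aa, 25 in H2-Eb1 and 26 in H2-DMb1. The class II relatives H2-Oa, H2-Ob and H2-Eb2 showed the same order of boxes in their windows. The window of H2-DMb2 held TGATTGG on at least 1 strand, but not GNAAC 15 to 35 bases before it on the gene's strand. The first 3 are printed here with 10 flanking bases for comparison.
H2-Oa, chr17:34092293-34092350, plus strand: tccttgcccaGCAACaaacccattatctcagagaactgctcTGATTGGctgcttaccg
H2-Ob, chr17:34238808-34238862, plus strand: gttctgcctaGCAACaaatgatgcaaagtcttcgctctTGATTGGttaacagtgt
H2-Eb2, chr17:34325533-34325589, plus strand: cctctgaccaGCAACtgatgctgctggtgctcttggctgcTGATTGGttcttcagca

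GNAAC followed by TGATTGG after 15 to 35 bases was found on the gene's strand in 0.25% of 32851 promoter windows of the same length. The class II windows above were searched for this order on that strand only. With both strands searched, the share of all windows was 0.569%. TGATTGG alone was found in 7.82% of the windows and GNAAC alone in 84.8%. Neither of the 2 windows of H2-DMa held TGATTGG. The motifs and their spacing were written down after these promoters had been seen, so the matches are a description of the sequences.

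Total counts per library ran from 5830034 to 22232478, and levels are given as CPM (counts scaled to the same library size), with TMM factors. Differences are log2 fold changes from edgeR's quasi-likelihood test with standard errors (SE), and adjusted p-values are Benjamini-Hochberg values over all 16051 genes, with 0.05 as the threshold for a call. The floxed gene itself, Il12rb2, ranged from 17.1 to 78.8 CPM (floxed control) and from 8.52 to 25.6 CPM (Il12rb2-deleted) without treatment, and from 1.98 to 8.14 and 0 to 1.64 CPM after Aldara. Reads of Il12rb2 thus remained in the untreated K14Cre libraries. Il12rb2-deleted Aldara replicate 1 stood apart, with a median Spearman correlation of 0.847 to the other libraries against 0.884 to 0.929 in the rest. The predicted gene Gm10800 took 14.2%, 5.21% and 10.3% of the counts in floxed control untreated replicate 2 and Il12rb2-deleted untreated replicates 1 and 2. Only these 3 are called high in Gm10800 below. In the other untreated libraries Gm10800 took at most 0.361%. It took 0.0483% to 2.22% in floxed control Aldara and 1.17% to 1.32% in Il12rb2-deleted Aldara libraries, which were not left out for it. Genes with a count numbered 22430, 21410 and 21097 in the 3 high libraries and 14320 to 18595 in the other untreated ones. The keratinocyte markers Krt5, Krt14, Krt1, Krt10 and Trp63 were present in every library, with a summed level of 9753 to 52772 CPM. In these bulk samples, fewer cells of a type and less RNA per cell cannot be told apart.

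Per kilobase of exon, Cd74 was the highest of the 7 genes and Ciita the lowest. Cd74 averaged 89.8 ± 73.9 CPM per kilobase (SD, n = 13 libraries of all groups), which placed it at the median 96.1st percentile of 16041 genes with a length. H2-Ab1 averaged 27.4 ± 19.4, H2-Eb1 21.5 ± 11 and H2-Aa 11.1 ± 7.11 CPM per kilobase, at median percentiles of 84.6, 83.5 and 71.9. H2-DMb1 averaged 7.87 ± 5.40, H2-DMa 3.71 ± 1.61 and Ciita 0.317 ± 0.217 CPM per kilobase. Cd74 lay above H2-Ab1, H2-Eb1 above H2-Aa, and H2-DMa above Ciita in 13 of 13 libraries. H2-Ab1 and H2-Eb1 were not separated in their order, since H2-Ab1 was the higher in 7 of 13 libraries. H2-Aa exceeded H2-DMb1 in 9 of 13 libraries, and H2-DMb1 exceeded H2-DMa in 11 of 13.

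The I-A chain genes rose after Aldara in Il12rb2-deleted keratinocytes. There 2 of the 7 members, H2-Aa and H2-Ab1, were called higher and 0 lower, against 7.81% and 7.69% of all tested genes. In floxed control keratinocytes 0 of 7 members passed in either direction, against 7.05% of all genes. H2-Aa encodes the alpha chain of I-A. Its level was 13.4, 44.6, 16.2 and 19.9 CPM in replicates 1 to 4 of the Il12rb2-deleted untreated group, and 36.3, 74.8 and 114 CPM in Aldara replicates 1 to 3 of that genotype. The groups overlapped only through untreated replicate 2, which lay above Aldara replicate 1. The group means were 23.5 ± 14.3 CPM (SD, n = 4) untreated and 74.9 ± 38.6 CPM (SD, n = 3) after Aldara. The log2 difference was 1.69 (SE 0.42, 95% interval 0.79 to 2.59, edgeR adjusted p = 0.0141). The call was lost without Il12rb2-deleted Aldara replicate 3, the library with the highest H2-Aa level (log2 difference 1.25, adjusted p = 0.0852). In floxed control libraries H2-Aa was read at 56.2, 31.7 and 30.0 CPM untreated and at 33.9, 41.7 and 37.7 CPM after Aldara. All floxed control Aldara values fell within the range of the untreated ones, and the log2 difference was -0.06 (SE 0.45, adjusted p = 0.968).

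H2-Ab1, which encodes the beta chain of I-A, stood at 16.6, 71.1, 9.57 and 31.3 CPM in replicates 1 to 4 of the Il12rb2-deleted untreated group and at 46.5, 136 and 175 CPM after Aldara. Here too untreated replicate 2 exceeded Aldara replicate 1. The log2 difference was 1.91 (SE 0.62, 95% interval 0.60 to 3.22, edgeR adjusted p = 0.0473). This value was close to the threshold, and the call was lost with DESeq2 (adjusted p = 0.0504), in a fit of only the libraries compared (0.0756) and with a replicate block (0.0953). It was also lost without any 1 of 9 libraries, with adjusted p of 0.0605 without floxed control untreated replicate 3 and 0.0519, 0.0568 and 0.0536 without floxed control Aldara replicates 1, 2 and 3. It was 0.125, 0.102 and 0.0893 without Il12rb2-deleted untreated replicates 1, 3 and 4, and 0.115 and 0.167 without Aldara replicates 2 and 3 of that genotype. The log2 difference itself stayed positive, between 1.52 and 2.64, in all leave-one-out fits. Floxed control H2-Ab1 was read at 117, 26.9 and 51.1 CPM untreated and at 48.7, 97.5 and 87.1 CPM after Aldara. The floxed control groups overlapped, with a log2 difference of 0.26 (SE 0.65, adjusted p = 0.878).

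H2-Eb1, the beta chain gene of I-E, moved in the same direction in Il12rb2-deleted cells without passing. Its levels were 19.5, 60.2, 25.7 and 38.2 CPM untreated and 38.9, 73.0 and 92.5 CPM after Aldara. The log2 difference was 0.93 (SE 0.37, edgeR adjusted p = 0.104), and it passed without untreated replicate 2 (1.29, adjusted p = 0.0242), without Aldara replicate 1 (1.21, 0.049) and with limma voom (1.12, 0.0347). In floxed control libraries H2-Eb1 was read at 44.6, 30.0 and 35.6 CPM untreated and at 20.6, 31.8 and 33.8 CPM after Aldara, with a log2 difference of -0.35 (SE 0.40, adjusted p = 0.686). The ratio of H2-Eb1 to H2-Aa per kilobase was 2.64 to 3.76 in Il12rb2-deleted untreated libraries and 1.59 to 2.09 after Aldara, with no overlap. It was 1.55 to 2.32 and 1.19 to 1.75 in the floxed control groups, which overlapped. The ratios were compared by their ranges, with no test.

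**Figure D1:**
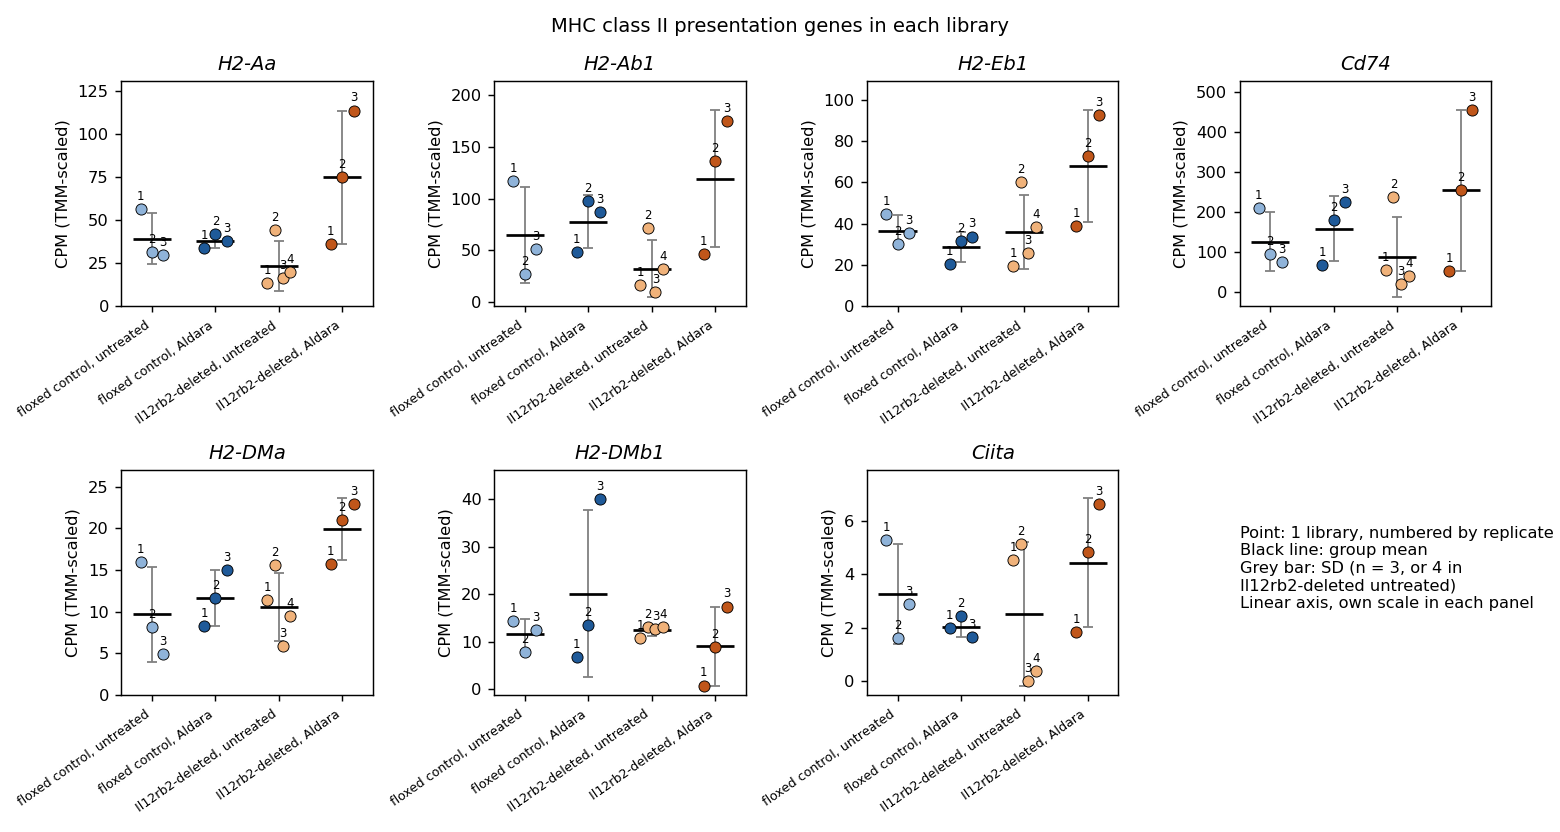
Level of each of the 7 genes in CPM (linear axes, a scale of its own per gene) in the 13 libraries, with numbered points for replicates and bars for group means with SD. Il12rb2-deleted Aldara replicates 2 and 3 were the highest libraries for H2-Aa, H2-Ab1, H2-Eb1 and Cd74, while replicate 1 of that group lay among the untreated values, and H2-DMb1 showed another order.

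Cd74 (ENSMUSG00000024610), the invariant chain gene on chromosome 18, varied most in level among the abundant members. It reached 53.9, 237, 20.6 and 39.2 CPM in replicates 1 to 4 of the Il12rb2-deleted untreated group, and 53.0, 253 and 455 CPM after Aldara. Untreated replicate 2 stood far above the other untreated libraries of its group, and Aldara replicate 1 stood level with untreated replicate 1. The log2 difference was 1.54 (SE 0.75, edgeR adjusted p = 0.192) and did not pass. It passed without untreated replicate 2, the shallowest library (2.74, adjusted p = 0.0135), and without the 3 untreated libraries high in Gm10800, of which that library is 1 (3.05, adjusted p = 0.0388). Floxed control Cd74 was read at 209, 93.4 and 74.1 CPM untreated and at 67.4, 180 and 225 CPM after Aldara. Both floxed control groups covered nearly the same range, with a log2 difference of 0.33 (SE 0.80, adjusted p = 0.875). Cd74 per kilobase was 2.88 to 13.5 times H2-Aa over the 13 libraries.

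The peptide-loading genes were lower and did not move as a pair. H2-DMa, the alpha chain of DM, was read at 11.4, 15.6, 5.83 and 9.48 CPM in Il12rb2-deleted untreated libraries and at 15.8, 21 and 22.9 CPM after Aldara. It was the 1 member of 7 whose Il12rb2-deleted groups did not overlap, with all Aldara values higher, as was the case for 14.2% of all tested genes. The groups nearly touched, at 15.6 CPM in untreated replicate 2 (79 counts) and 15.8 CPM in Aldara replicate 1 (154 counts). The log2 difference of 0.92 (SE 0.46) did not pass (edgeR adjusted p = 0.202). Floxed control H2-DMa was read at 16.0, 8.21 and 4.92 CPM untreated and at 8.30, 11.6 and 15.0 CPM after Aldara, with a log2 difference of 0.27 (SE 0.49, adjusted p = 0.825). H2-DMa shares 360 exonic bases with Brd2 on the opposite strand, and the strand setting of the counting is not given in the sources used here. Brd2 was read at 79.5 to 196 CPM, and its Aldara difference over both genotypes was 0.04 (SE 0.18). That average is not the comparison within Il12rb2-deleted cells, and the part of Brd2 reads in the H2-DMa counts was not tested.

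H2-DMb1, the beta chain of DM, was steady in the Il12rb2-deleted untreated libraries, at 10.8, 13.1, 12.7 and 13.1 CPM. After Aldara it spread over 0.818, 9.0 and 17.4 CPM in that genotype, where the lowest value rests on 8 counts in replicate 1. In floxed control libraries it was read at 14.3, 7.89 and 12.5 CPM untreated and at 6.77, 13.6 and 40.0 CPM after Aldara. The Aldara groups thus reached both below and above the untreated ones in each genotype, and the spread after Aldara exceeded every group difference. The log2 differences were 0.80 (SE 0.76, edgeR adjusted p = 0.617) in floxed control and -0.44 (SE 0.71, adjusted p = 0.755) in Il12rb2-deleted libraries. H2-DMb1 has a near-identical neighbour, H2-DMb2, and reads that map to both could be split in the counting. H2-DMb2 was counted 0 to 40 times per library.

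Ciita, the coactivator on which class II transcription depends, had few counts and a wide spread between replicates. Its counts were 53, 26, 0 and 6 in Il12rb2-deleted untreated replicates 1 to 4 and 18, 68 and 97 after Aldara, or 4.54, 5.15, 0 and 0.384 CPM and 1.84, 4.85 and 6.63 CPM. In floxed control libraries they were 72, 15 and 64 untreated and 31, 21 and 34 after Aldara, or 5.30, 1.6 and 2.89 CPM and 1.98, 2.44 and 1.66 CPM. The value of 0 in untreated replicate 3 allows up to 0.233 CPM (3 counts, covering counting error only), and it fell in the library with the lowest H2-Ab1 and Cd74 levels. The groups overlapped in both genotypes. The Aldara difference was -0.69 (SE 1.25, edgeR adjusted p = 0.821) in floxed control and 0.84 (SE 1.16, adjusted p = 0.706) in Il12rb2-deleted libraries, so differences of several-fold in either direction lay within the spread between libraries. Ciita shares 329 exonic bases with Dexi on the opposite strand. Dexi was read at 33.3 CPM in floxed control Aldara replicate 3, where Ciita was low, and at 0 to 7.66 CPM in the other libraries.

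Over the 7 members, the median log2 difference after Aldara in Il12rb2-deleted cells was 0.93, against -0.09 over all tested genes. In floxed control cells 0 of 7 members had an unadjusted p under 0.05, against 21.3% of all genes. The members' median there was 0.26, against -0.13 over all genes. The 7 genes are read in the same libraries, so they are not 7 independent observations.

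Whether the Aldara differences differed between genotypes was tested as an interaction. H2-Aa gave 1.75 (SE 0.62, unadjusted p = 0.0126) and H2-Eb1 1.29 (SE 0.54, unadjusted p = 0.0319), and both had an edgeR adjusted p of 1. H2-Ab1 gave 1.65 (SE 0.90), Ciita 1.53 (SE 1.70), Cd74 1.22 (SE 1.1) and H2-DMa 0.65 (SE 0.67), while H2-DMb1 gave -1.24 (SE 1.04), all with an adjusted p of 1. Leaving out single libraries moved Cd74 from 0.49 (without Il12rb2-deleted Aldara replicate 3) to 2.41 (without Il12rb2-deleted untreated replicate 2). H2-DMa was 0.0757 without floxed control untreated replicate 1, and H2-DMb1 was -0.25 without floxed control Aldara replicate 3 and -2.13 without Il12rb2-deleted Aldara replicate 3. No member passed, and 0% of all genes passed with edgeR (3.36% at an unadjusted p under 0.05; DESeq2 called 2 genes and limma voom 0). The call of H2-Aa and H2-Ab1 in 1 genotype is therefore not shown to be a difference between the genotypes. The members' median interaction was 1.29, against 0.01 over all genes.

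**Figure D2:**
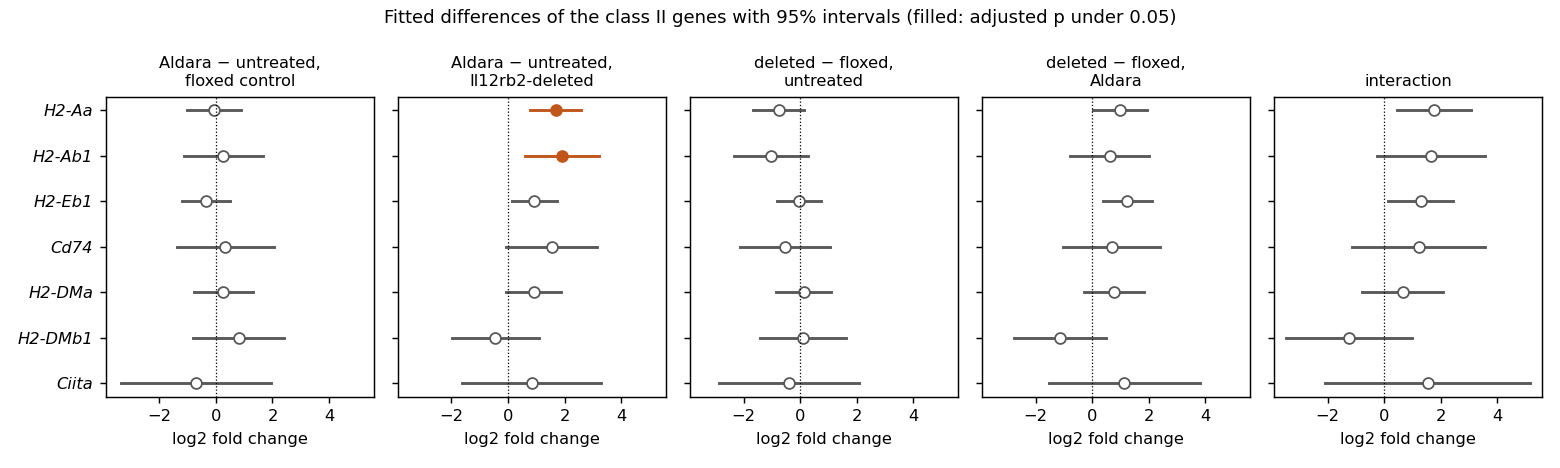
Log2 fold change of each of the 7 genes with its 95% interval in 5 comparisons, with filled points for an edgeR adjusted p under 0.05 and a vertical line at 0. Only H2-Aa (1.69) and H2-Ab1 (1.91) after Aldara in Il12rb2-deleted cells are filled, and the intervals of Ciita and H2-DMb1 are among the widest.

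Il12rb2 deletion itself was tested in each treatment. Without treatment the members' log2 differences, Il12rb2-deleted against floxed control, were -1.03 for H2-Ab1 (SE 0.61), -0.76 for H2-Aa (SE 0.42), -0.53 for Cd74 (SE 0.75) and -0.40 for Ciita (SE 1.16). They were -0.04 for H2-Eb1 (SE 0.37), 0.12 for H2-DMa (SE 0.46) and 0.10 for H2-DMb1 (SE 0.71). All had an edgeR adjusted p of 1, and 0% of all genes passed (3.73% at an unadjusted p under 0.05; DESeq2 called 22 genes and limma voom 0). After Aldara the differences were 1.25 for H2-Eb1 (SE 0.40, unadjusted p = 0.00733), 0.99 for H2-Aa (SE 0.45, unadjusted p = 0.0448) and 0.77 for H2-DMa (SE 0.49). They were 0.62 for H2-Ab1 (SE 0.65), 0.69 for Cd74 (SE 0.81), 1.14 for Ciita (SE 1.25) and -1.14 for H2-DMb1 (SE 0.76). None passed, with an adjusted p of 0.982 for each, and 0% of all genes passed (4.3% at an unadjusted p under 0.05; DESeq2 called 23 genes and limma voom 0). H2-Eb1 and H2-DMa were higher in every Il12rb2-deleted Aldara library than in every floxed control Aldara library. Groups without overlap in that direction were found for 2 of the 7 members and for 4.37% of all genes.

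Averaged over both genotypes with equal weight, Aldara gave log2 differences of 0.82 for H2-Aa (SE 0.31, edgeR adjusted p = 0.0671) and 1.08 for H2-Ab1 (SE 0.45, adjusted p = 0.0937). The other members were further from the threshold, at 0.94 for Cd74 (SE 0.55), 0.59 for H2-DMa (SE 0.34), 0.29 for H2-Eb1 (SE 0.27), 0.18 for H2-DMb1 (SE 0.52) and 0.07 for Ciita (SE 0.85). Of the 7 members 0 passed, while 24.9% of all genes did. H2-Aa passed here with DESeq2 (adjusted p = 0.0455), limma voom (0.0184) and without a filter on low counts (0.0241). It also passed without floxed control untreated replicate 1 (0.0415), Il12rb2-deleted untreated replicate 2 (0.00898) or Il12rb2-deleted Aldara replicate 1 (0.0221). H2-Ab1 passed with limma voom (0.0174), without the filter (0.0247) and without the same 3 libraries (0.0334, 0.0167 and 0.0476). Cd74 passed without Il12rb2-deleted untreated replicate 2 (log2 difference 1.54, adjusted p = 0.0232).

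The relatives of the members had few counts in these cells. H2-Oa and H2-Ob encode DO, which restrains DM and is made mainly in B cells, and they were counted 0 to 16 and 0 to 17 times per library. H2-Eb2, a second I-E beta gene, was counted 0 to 5 times, and the pseudogene H2-Ea-ps of the I-E alpha chain 0 to 2 times. Of the 4 other class II chain and loading genes listed, only H2-DMb2 passed the filter, with 25 to 33 counts in the floxed control untreated libraries, and it did not pass the test (Aldara over both genotypes -0.36, SE 1.24, edgeR adjusted p = 0.867). Within this family of promoters, H2-Oa, H2-Ob and H2-Eb2 carry the box order shown above. H2-DMb2 does not carry it on the gene's strand, and all 4 had fewer counts than H2-Aa and H2-Eb1.

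Of the 7 factors tested that bind the class II promoter, 1 was called higher and 2 lower after Aldara over both genotypes, against 13% and 11.9% of all genes. The other 4 did not pass. Rfxank, a subunit of the RFX complex, rose by 0.61 (SE 0.19, edgeR adjusted p = 0.0303), and Creb1, a CREB protein, fell by 0.55 on the log2 scale (SE 0.16, edgeR adjusted p = 0.0186). Rfx5, the DNA-binding RFX subunit, had 32.8, 36.4 and 30.9 CPM in floxed control untreated and 8.81, 13 and 7.59 CPM in floxed control Aldara libraries. In Il12rb2-deleted cells it was read at 27, 28.9, 22.4 and 28.4 CPM untreated and 42.1, 10.4 and 17.8 CPM after Aldara, where replicate 1 went against the other Aldara libraries. Rfx5 fell by 0.98 on the log2 scale over both genotypes (SE 0.29, edgeR adjusted p = 0.0212) and by 1.77 in floxed control cells (adjusted p = 0.0226). Its difference in Il12rb2-deleted cells was -0.19 (adjusted p = 0.817), and the interaction of 1.58 (SE 0.57) had an adjusted p of 1. Without the 3 libraries high in Gm10800 the calls of Rfx5, Rfxank and Creb1 over both genotypes were lost (adjusted p = 0.114, 0.171 and 0.118). With single libraries left out, the adjusted p ranged from 0.000874 to 0.0553 for Rfx5, 0.0151 to 0.0887 for Rfxank and 0.0198 to 0.0620 for Creb1. Rfx5 lost its call without floxed control untreated replicate 2, floxed control Aldara replicate 1 or Il12rb2-deleted Aldara replicate 3 (adjusted p = 0.0506, 0.0517 and 0.0553). Creb1 lost it without floxed control untreated replicate 2 (0.0620) and without the filter (0.141). Rfxank lost it without any 1 of 6 libraries: floxed control untreated replicate 2 (0.0866), Il12rb2-deleted untreated replicates 1 and 3 (0.0537 and 0.0536), floxed control Aldara replicates 1 and 2 (0.0733 and 0.0775) and Il12rb2-deleted Aldara replicate 2 (0.0887).

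Of the lysosomal enzymes that process antigen and the invariant chain, 6 were tested over both genotypes, with 1 called higher and 1 lower, against 13% and 11.9% of all genes. Ctsd (cathepsin D) rose by 1.08 (SE 0.19, edgeR adjusted p = 0.000794), from 419 to 792 CPM over the untreated libraries to 951 to 1668 CPM over the Aldara libraries, with no overlap. Ctsh (cathepsin H) fell by 0.76 on the log2 scale (SE 0.20, edgeR adjusted p = 0.0125). Ctss (cathepsin S), the enzyme that trims the invariant chain in antigen-presenting cells, gave -1.58 and did not pass. Ifi30 was not analysed here. The ubiquitin ligases of class II gave 0.49 for March8 (adjusted p = 0.239) and 0.07 for March1 (adjusted p = 0.977).

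Of 6 genes described on the route from interferon-gamma to Ciita, 3 were called lower and 0 higher over both genotypes, against 11.9% and 13% of all genes. Ifngr1, the ligand-binding receptor chain, fell by 1.22 on the log2 scale (SE 0.33, edgeR adjusted p = 0.0146), and the kinase Jak1 fell by 0.70 on the same scale (SE 0.15, edgeR adjusted p = 0.00265). Irf1, a transcription factor that acts on the inducible Ciita promoter, fell by 1.64 on the log2 scale (SE 0.41, edgeR adjusted p = 0.00877). Irf1 was read at 175 to 386 CPM in the untreated and at 7.47 to 117 CPM in the Aldara libraries, with no overlap. The calls of Ifngr1, Irf1 and Ctsh were lost without the 3 libraries high in Gm10800 (adjusted p = 0.0765, 0.0769 and 0.0933), with log2 differences of -1.13, -1.31 and -0.67. Ifng itself was counted 0 to 2 times per library. Of 5 costimulation and adhesion genes tested, Icam1 fell by 1.74 on the log2 scale (SE 0.26, edgeR adjusted p = 0.00023) and 0 were called higher, against 11.9% lower and 13% higher over all genes.

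The 4 abundant members rose and fell together from library to library. Across the 13 libraries the log2 CPM of H2-Aa and H2-Ab1 had a Pearson r of 0.919, H2-Ab1 and Cd74 0.908, and H2-Aa and Cd74 0.874. H2-Eb1 followed the others less closely, with r of 0.83 to H2-Aa, 0.73 to H2-Ab1 and 0.72 to Cd74. These correlations are descriptions over libraries that share depth and group differences. A reference pattern was made from the mean of the scaled log2 CPM of H2-Aa, H2-Ab1, H2-Eb1 and Cd74. H2-DMa followed it with r = 0.764 and Ciita with 0.688, ranks 64 and 190 among the 16051 genes, while H2-DMb1 reached 0.20 and rank 5342. H2-DMb1 had r = 0.667 when the group means were removed.

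Among the other genes whose levels were most like that pattern were H2-T22, Igtp, Tsku, Chrnb2, Gbp10, Il18bp and Klk6, with r from 0.826 to 0.938. H2-T22, a nonclassical MHC class I gene, had the highest (r = 0.938, and 0.929 without the 2 libraries farthest from the median of the pattern, Il12rb2-deleted Aldara replicates 2 and 3). Igtp, an interferon-inducible GTPase, had r = 0.876 (0.928 without these libraries). Igtp was read at 12.4, 62.0, 7.78 and 19.0 CPM in Il12rb2-deleted untreated and 48.8, 61.0 and 75.6 CPM in Il12rb2-deleted Aldara libraries, so untreated replicate 2 was again high. Floxed control untreated replicate 1, the highest of its group for all 4 abundant members, was also the highest of its group for Igtp (69.7 against 21.2 and 36.7 CPM). Irf1 had r = -0.166 over the libraries and -0.445 without Il12rb2-deleted Aldara replicate 1. In that library Irf1 was read at 7.47 CPM, far below the median of its group (90.1 CPM). When the group means were removed, r was 0.544 for Irf1 and 0.597 for Ciita. How far the 0.544 rests on that library was not tested.

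**Figure D3:**
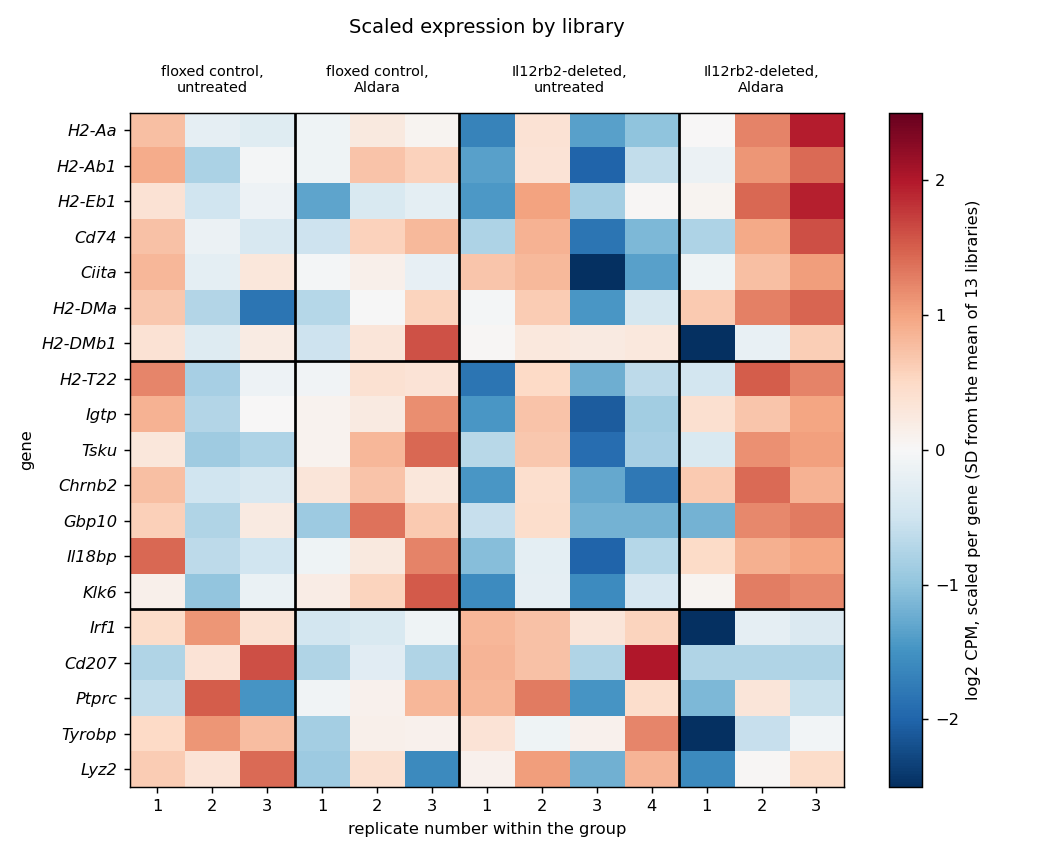
Log2 CPM of the 7 members, 7 genes of most similar pattern and comparison genes, scaled per gene to mean 0 and SD 1 over the 13 libraries, with libraries in columns by group. The 4 abundant members and H2-T22 and Igtp are mostly high in the same libraries, H2-Eb1 less so in the floxed control Aldara group, and H2-DMb1 differs from them.

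The gate could also hold Langerhans cells or other leukocytes, some of which express class II genes strongly, so their markers are given beside the members. Cd207, the defining Langerhans marker, was counted 0, 4 and 60 times in floxed control and 11, 4, 0 and 70 times in Il12rb2-deleted untreated libraries. After Aldara it was counted 0, 1 and 0 times in floxed control and 0 times in all 3 Il12rb2-deleted libraries, which allows up to 0.307, 0.214 and 0.205 CPM in replicates 1 to 3. Of the 7 Langerhans markers, 1 to 3 were at 0 in each Il12rb2-deleted Aldara library. Their summed level was 7.73 to 19.3 CPM in floxed control untreated, 7.41 to 13.3 in floxed control Aldara, 13.6 to 21.8 in Il12rb2-deleted untreated and 7.57 to 16.1 in Il12rb2-deleted Aldara libraries. Most of this sum came from Csf1r, with group means of 8.18 to 10.9 CPM, while the other 6 markers were counted 0 to 75 times per library. Of 4 Langerhans markers tested, 1 was called lower and 0 higher over both genotypes, against 11.9% and 13% of all genes. Cd207 was called lower over both genotypes (log2 difference -6.08, edgeR adjusted p = 0.0254), but this call was lost under 8 of the alternatives. These were limma voom (adjusted p = 0.107), the replicate block (0.0641), and leaving out the libraries high in Gm10800 (0.0544), floxed control untreated replicate 3 (0.0728), floxed control Aldara replicates 1 and 3 (0.0661 and 0.0572) or Il12rb2-deleted Aldara replicates 2 and 3 (0.0579 and 0.0568). Without Il12rb2-deleted untreated replicate 1 or 4, Cd207 did not pass the filter on low counts.

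The 10 pan-leukocyte and myeloid markers summed to 25.6 to 48.5 CPM in floxed control untreated, 6.26 to 29.3 in floxed control Aldara, 11.2 to 52.3 in Il12rb2-deleted untreated and 0.307 to 19.1 in Il12rb2-deleted Aldara libraries. None of the 10 was called in the Aldara difference over both genotypes, against 24.9% of all genes, and their median log2 difference was -1.28. Ptprc (CD45), carried by all leukocytes, was counted 1, 25 and 6 times in the Il12rb2-deleted Aldara libraries. Within that group the marker sum and the class II sum (H2-Aa, H2-Ab1, H2-Eb1 and Cd74) had the same order, 0.307, 10.5 and 19.1 CPM beside 175, 537 and 837 CPM in replicates 1 to 3. The keratinocyte, fibroblast, Langerhans and B cell marker sums had that order too. The T cell, other dendritic cell, macrophage, endothelial and melanocyte sums did not. Il12rb2-deleted untreated replicate 2, which was high in class II genes for its group (413 CPM summed), also had the highest leukocyte sum of all libraries, 52.3 CPM. That library was likewise the highest of all for the fibroblast (1357 CPM), endothelial (50.1 CPM), macrophage (16.6 CPM) and Langerhans (21.8 CPM) sums. Floxed control untreated replicate 3 had a leukocyte sum of 48.5 CPM beside a class II sum of 191 CPM, and replicate 1 had 25.6 CPM beside 426 CPM. With the group means removed, the 10 leukocyte markers had r of 0.349 to 0.804 with the class II pattern over the 13 libraries. The highest were Fcer1g (0.804), Laptm5 (0.701), Cd68 (0.692) and Lyz2 (0.660), and Ptprc had 0.363. With the group means kept, their r ran from -0.135 (Tyrobp) to 0.363 (Fcer1g). Such values were not particular to leukocyte markers. With the group means removed, the fibroblast markers had 0.864 (Dcn), 0.767 (Col1a2), 0.665 (Col1a1), 0.645 (Lum) and 0.170 (Pdgfra). The markers' part in the class II differences was not tested.

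Markers of other cells were summed in the same way. Dendritic cell markers other than those of Langerhans cells (6 genes) summed to 2.07 to 18.2 CPM in floxed control untreated, 0.73 to 3.37 in floxed control Aldara, 1.87 to 10.1 in Il12rb2-deleted untreated and 2.46 to 11.7 in Il12rb2-deleted Aldara libraries. The 5 macrophage markers summed to 2.66 to 5.45, 3.07 to 4.53, 2.02 to 16.6 and 3.21 to 5.22 CPM in the same order of groups, and the 4 B cell markers to at most 2.05 CPM in any library. T cell markers (7 genes) summed to 11.6 to 17.4, 3.77 to 7.35, 14.5 to 27.2 and 1.93 to 7.25 CPM, lower in every Aldara library than in every untreated one. Keratinocyte marker sums were also lower after Aldara, 20079 to 35678 and 34159 to 52772 CPM untreated in floxed control and Il12rb2-deleted cells, against 9753 to 18332 and 11337 to 18887 CPM after Aldara. The 3 endothelial markers summed to 2.43 to 50.1 CPM and the 3 melanocyte markers to 6.85 to 206 CPM over all libraries. Fibroblast marker sums were 526 to 1357 CPM over the untreated libraries and 10.1 to 236 CPM over the Aldara libraries. The part of these shifts in the members' CPM was not tested.

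**Figure D4:**
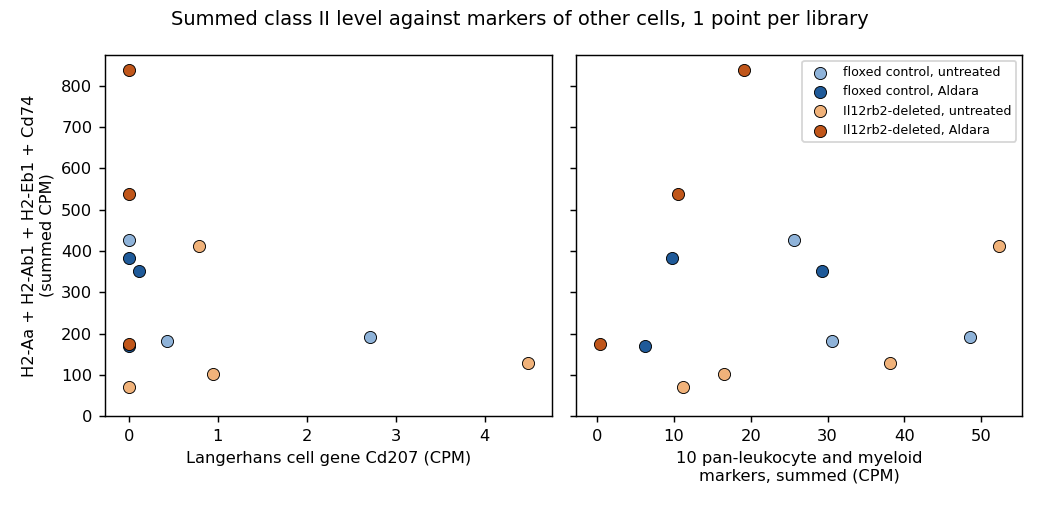
Summed CPM of H2-Aa, H2-Ab1, H2-Eb1 and Cd74 (vertical axis, linear) in each of the 13 libraries against Cd207 and the summed pan-leukocyte and myeloid markers (horizontal axes, CPM, linear), with 1 point per library coloured by group. The highest class II sum (837 CPM, Il12rb2-deleted Aldara replicate 3) lies at 0 CPM of Cd207 and 19.1 CPM of leukocyte markers.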

How the data were processed

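RNA of sorted interfollicular keratinocytes was sequenced as Smart-seq2 libraries with single-end reads of 100 bases, per the labels' protocols. The file the authors deposited holds raw counts of reads for each Ensembl gene, without normalization. STAR, featureCounts of Subread and GRCm38 were used, per the submitters' processing notes, while versions, annotation release, strand setting and the treatment of multi-mapping reads are not stated there. Whether replicates are separate animals is not said either, and p-values then measure only spread between samples that may be technical. No 2 libraries were identical.

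Genes were kept with filterByExpr of edgeR 4.0.16 (R 4.3.3) at a minimum count of 10, leaving 16051 of 25746. TMM factors and a quasi-likelihood fit with 1 coefficient per group over 13 libraries (9 residual degrees of freedom) gave the contrasts, and SE is the size of the log2 fold change over the root of F. Log2 CPM used a prior count of 2. Levels per kilobase used the exon union of GENCODE M21. Alternatives were RLE factors, DESeq2 1.42.0, limma 3.58.1 voom, no filter, a replicate block, only the libraries compared, each library left out, and leaving out the 3 untreated libraries high in Gm10800. A pair of alternatives for pattern likeness were added after seeing the data. The fit was also run on counts simulated from a single mean profile, without the outlying library or the Gm10800 differences seen here. Its outcome is not given, and no result rests on it.

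The members, pathway groups and marker lists were chosen with earlier results of these data known. All members are named in every contrast. Of each pathway group, up to 4 genes that passed over both genotypes by smallest p are named, otherwise the 2 with the smallest p as values, and the 8 genes of highest r with the class II pattern, predicted genes left out. Genes outside this rule, such as Brd2, Dexi, Ctss and Rfx5 per genotype, were chosen after their values were seen. Some values are not reported here. Of 32 pathway symbols 31 were found, and 55 of 55 marker symbols.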

Additional observations from a re-analysis of the deposited data

Results flagged for a closer look

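Cd74 was read at 237 CPM in Il12rb2-deleted untreated replicate 2, far above the 20.6, 39.2 and 53.9 CPM of the other libraries of its group. The gap to the nearest library exceeded Dixon's critical value for 4 samples, a test that flags about 1 in 20 groups by chance. This group was the only one large enough to be tested. The rule was applied there to all 7 members, at the highest and the lowest value, so a flag somewhere is likelier than that rate. It used CPM on the linear scale, and log2 values were not tested.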

How the results depend on the processing

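Over the 42 results of members and contrasts, 826 alternative values were computed. Of these 765 kept their direction and their side of the threshold, 13 lost a call, 17 gained one and 31 changed sign; the causes were not tested. The number of genes called after Aldara in floxed control cells, 1132, was 2022 with DESeq2, 270 without the 3 libraries high in Gm10800 and 215 to 1451 with single libraries left out. In Il12rb2-deleted cells the number, 2489, was 1466 without the Gm10800 libraries and 1650 to 2764 with single libraries left out, and over both genotypes 3994 became 2622 without the Gm10800 libraries. For the deletion after Aldara, edgeR's 0 became 23 with DESeq2 and 1 without the filter, for the deletion untreated 22 and 3, and for the interaction 2 with DESeq2 and 0 to 1 with single libraries left out. Whether replicate numbers pair the samples was not settled. The 18 same-number pairs had r of -0.16 to 0.42 (median -0.0004), with 6 over 0.1. The 45 different-number pairs had r of -0.44 to 0.37 (median -0.002), also with 6 over 0.1. Floxed control and Il12rb2-deleted untreated libraries both high in Gm10800 had r of 0.42 (replicates 2 and 2) and 0.34 (2 and 1). Floxed control untreated replicate 3, not high, had 0.30 and 0.37 with Il12rb2-deleted untreated replicates 3 and 4, also not high. It had -0.44 with replicate 2 of that group, which was high. Of the 13 libraries, 6 correlated best with their own number. With a replicate block 831, 1919 and 3581 genes were called for Aldara in floxed control, Il12rb2-deleted and both.

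Some differences that did not pass changed sign. H2-DMb1 over both genotypes was -0.22 with limma voom and -0.25 with the block. In floxed control, H2-Aa was 0.00085 without the filter, Cd74 -0.0167 with the block and H2-Ab1 -0.0908 without the Gm10800 libraries. Without these libraries H2-DMa and H2-DMb1 untreated were -0.39 and -0.00648. With single libraries left out, floxed control differences ran from -0.23 to 0.30 (H2-Aa), -0.11 to 0.99 (H2-Ab1), -0.0235 to 0.91 (Cd74), -0.0642 to 0.84 (H2-DMa) and -0.19 to 1.22 (H2-DMb1). H2-DMb1 ran from -1.33 to 0.0924 in Il12rb2-deleted cells. Untreated deletion differences ran from -0.40 to 0.16 (H2-Eb1), -1.73 to 0.0572 (Cd74), -0.99 to 0.14 (Ciita), -0.21 to 0.69 (H2-DMa) and -0.11 to 0.28 (H2-DMb1). Cd74 after Aldara ran from -0.0404 to 1.17, and over both genotypes Ciita ran from -0.14 to 0.37 and H2-DMb1 from -0.32 to 0.45. None of the members' interactions changed sign with single libraries left out. Ciita had 0 to 97 counts per library.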
